A study of Mus musculus with 12 samples.

Results

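The blood-brain barrier is built by the endothelial cells of brain capillaries and by the mural cells (pericytes and smooth muscle cells) wrapped around them. RNA levels of 35 genes of these vessel cells were followed in mouse cortex 2 hr after controlled cortical impact (CCI) (a blow to the brain surface by a driven tip, used as a model of traumatic brain injury). The genes were taken by symbol from the 55487 genes of the count table: 23 endothelial genes (6 of cell junctions, 5 receptors, 8 transporters and 4 of the cell surface or secreted) and 12 mural genes (8 of pericytes and 4 of smooth muscle). All 35 were among the 16836 genes that passed the filter on low counts.

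The cortex struck (ipsilateral) and the cortex of the other side (contralateral) were sampled in 2 genotypes, with 3 libraries in each of the 4 groups. In the sample labels the control genotype, called wt below, is CX3CR1cre-er/+, and the cKO genotype is CX3CR1cre-er/+ STING fl/fl. Both therefore carried a Cre recombinase under the control of Cx3cr1, a gene of microglia and monocytes and not of endothelial or mural cells, and cKO mice also carried floxed STING, an adaptor of cytosolic DNA sensing. The series description writes the Cre allele of the floxed animals without the inducible part, tamoxifen dosing is not given in the sources used here, and every library came from injured mice, with no sham or uninjured group analysed here. Nothing in the labels says that libraries came from separate animals, so each p-value measures the spread between these libraries only.

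Endothelial cells of the brain are sealed by tight junctions of claudin 5 and occludin, which limit passage between cells, and exchange nutrients and drugs through transporters for glucose, amino acids, lactate, lipids and organic anions. Vascular endothelial growth factor (VEGF) and angiopoietins act on these cells through receptor tyrosine kinases. Pericytes depend on signalling through the receptor Pdgfrb and stabilise the capillary wall, and smooth muscle cells of arterioles carry contractile proteins that set vessel diameter.

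Depth was 20.8 to 33.6 M counts (M is 1000000) in 11 libraries and 7.96 M in cKO ipsilateral library 3, which also stood apart on the second principal component and held 10548 TPM (transcripts per 1000000, scaled for gene length) of the noncoding RNA Bc1 against 83028 to 167036 in the others. A count of 3, taken as the floor of measurement, was 0.0881 to 0.373 CPM (counts per 1000000 of the scaled library), and the lowest count of any of the 35 genes was 8. The STING gene (Tmem173) had 0.762 to 1.96 CPM in cKO against 2.49 to 3.18 CPM in wt contralateral cortex, and 1.05 to 2.44 against 2.34 to 3.69 CPM in ipsilateral cortex, where 1 cKO library lay within the wt range. Neuronal markers were high in every library, 8 genes summing to between 9963 and 12142 CPM.

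The vessel genes were all detected, over a wide range of levels. On the length-scaled TPM scale, and as means of the 12 libraries, the highest were the glucose transporter Slc2a1 (90.4), Vtn, which encodes the adhesive protein vitronectin made by pericytes (87.5), and the surface protein gene Ly6c1 (85.7). Ly6a followed at 50.3 TPM, the pericyte signalling regulator Rgs5 at 42 TPM and claudin 5 (Cldn5) at 38.2 TPM. The lowest were Abcc9, the sulfonylurea receptor subunit of pericyte potassium channels (1.81), the intermediate filament gene Des (1.88), smooth muscle myosin Myh11 (2.44) and the VEGF receptor Kdr (2.61). Neighbours in this order overlapped in their ranges over libraries: Slc2a1 ran from 74.5 to 114 TPM, Vtn from 69.9 to 100 and Ly6c1 from 62.5 to 118. Slc2a1, Slc7a5, Slc16a1, Slco1c1 and Tjp1 are also expressed by glia or neurons, and Ly6c1 and Abcb1a have close paralogs (Ly6c2 and Abcb1b) with which reads can be shared.

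**Figure D1:**
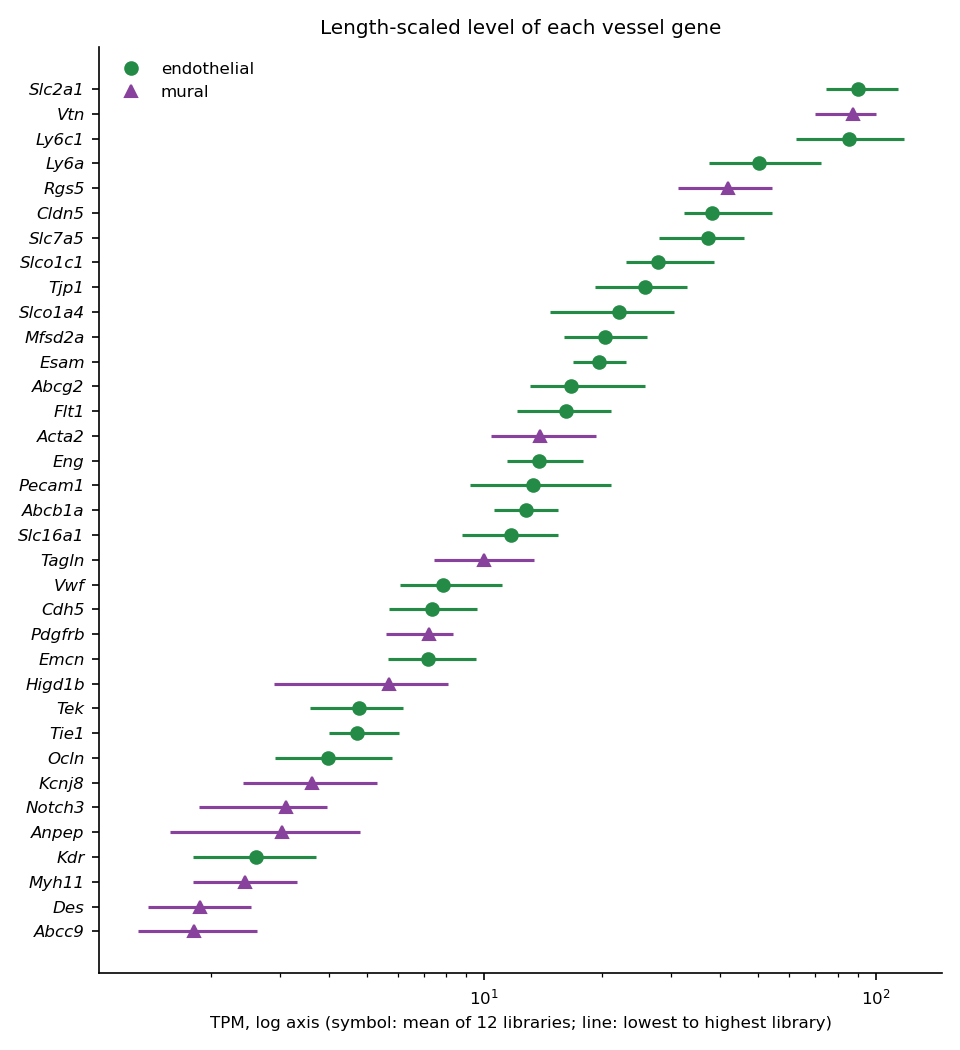
Mean TPM of each of the 35 vessel genes over 12 libraries on a log axis, with a line from the lowest to the highest library; circles are endothelial and triangles mural genes. Levels run from 90.4 TPM for Slc2a1 down to 1.81 TPM for Abcc9, and genes of both classes lie at both ends.

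Ipsilateral cortex held more RNA of a subset of endothelial genes, and no mural gene passed the test as fitted. With both genotypes averaged, 6 of 23 endothelial genes were higher in ipsilateral cortex at an adjusted p under 0.05 in edgeR's quasi-likelihood test: the VEGF receptor Flt1, endomucin (Emcn), VE-cadherin (Cdh5), Pecam1, the lactate transporter Slc16a1 and the thyroxine transporter Slco1c1. Their rises were 1.24-fold to 1.35-fold. Over all 16836 genes tested, 1009 were called higher (5.99%) and 341 lower (2.03%), 8.02% in all. None of the 12 mural genes was called by edgeR or by DESeq2. At an unadjusted p under 0.05 there were 2 mural genes (Anpep and Notch3, 16.7%) and 12 endothelial genes (52.2%), against 22.9% of all genes. Without a filter on low counts edgeR called both Anpep (adjusted p = 0.024) and Notch3 (adjusted p = 0.0147). With a block for replicate number it called Anpep (adjusted p = 0.0201 across groups and 0.0303 within genotype). More RNA per endothelial cell, a larger share of endothelial cells and RNA from other cells cannot be told apart in these bulk libraries. Of the genes called, Slc16a1 and Slco1c1 are also expressed by glia or neurons, and Pecam1 by platelets and leukocytes.

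The stretches of 250 bases upstream of the start of 4 of these genes are printed because these genes rose together; 25 of the 35 genes matched the RefSeq promoter table (GRCm38.p6); Cdh5 and Pecam1 were not among them. The 4 stretches lie at chr5:147726012-147726261 on the minus strand (Flt1), chr3:137340828-137341077 on the plus strand (Emcn), chr6:141524104-141524353 on the plus strand (Slco1c1) and chr3:104638414-104638663 on the plus strand (Slc16a1). Each is written from 5′ to 3′ on the gene's own strand, and capitals mark matches on either strand to 3 words: TGACGTCA, the cyclic AMP response element, and CAGGAA and GGAAGT, 2 forms of the site of ETS factors, which are common in endothelial genes.
Flt1: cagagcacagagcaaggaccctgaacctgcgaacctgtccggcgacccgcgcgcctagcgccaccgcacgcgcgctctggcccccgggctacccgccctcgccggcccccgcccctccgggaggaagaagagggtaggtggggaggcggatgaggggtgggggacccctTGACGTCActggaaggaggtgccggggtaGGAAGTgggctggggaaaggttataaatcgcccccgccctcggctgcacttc
Emcn: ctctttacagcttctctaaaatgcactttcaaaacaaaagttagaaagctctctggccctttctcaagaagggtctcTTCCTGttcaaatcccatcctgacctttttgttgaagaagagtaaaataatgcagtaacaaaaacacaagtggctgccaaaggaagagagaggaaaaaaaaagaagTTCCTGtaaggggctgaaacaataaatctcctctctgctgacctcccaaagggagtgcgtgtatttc
Slco1c1: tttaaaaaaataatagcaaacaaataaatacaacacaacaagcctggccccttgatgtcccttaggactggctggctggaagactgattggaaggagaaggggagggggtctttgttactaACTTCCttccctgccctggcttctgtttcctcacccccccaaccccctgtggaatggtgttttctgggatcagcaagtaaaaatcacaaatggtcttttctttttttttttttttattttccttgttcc
Slc16a1: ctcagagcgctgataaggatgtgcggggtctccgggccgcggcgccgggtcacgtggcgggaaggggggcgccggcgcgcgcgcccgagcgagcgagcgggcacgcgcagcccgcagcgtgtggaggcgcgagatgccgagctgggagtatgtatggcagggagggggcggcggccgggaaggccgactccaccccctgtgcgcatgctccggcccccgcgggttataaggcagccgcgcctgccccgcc
Flt1 held 1 TGACGTCA and 1 GGAAGT, Emcn 2 copies of CAGGAA, Slco1c1 1 GGAAGT, and Slc16a1 none of the 3 words. Of all 32851 promoters of this length, 1.55% held TGACGTCA, 25.7% CAGGAA and 19.7% GGAAGT. Among the 29 promoters of the 25 matched genes, 2 held TGACGTCA (Flt1 and Abcg2), 8 held CAGGAA and 9 held GGAAGT. Other patterns were counted but are not marked. The NF-kB pattern was in 6 of the 29 (5% of all promoters), the KLF pattern CACCC in 22 (52%) and the forkhead core TGTTT in 11 (46.4%). The ETS core GGAA was in 25 (93.4%) and CCGGAA in 2 (12%). The AP-1 pattern TGANTCA was in 0 (6.75%) and the CArG box in 0 (1.47%). These matches are letters in a window, not binding sites.

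Flt1, on chromosome 5 at 147561604 to 147726011 of GRCm38 (protein coding), encodes VEGF receptor 1 and had the largest rise of the 35 genes in the average over genotypes. It was at 59.8, 61.1 and 73.6 CPM in the 3 wt contralateral libraries and at 78.2, 80.0 and 96.0 CPM in the 3 wt ipsilateral ones. In cKO it was at 59.5, 55.0 and 51.6 CPM in contralateral and 76.0, 78.6 and 78.2 CPM in ipsilateral cortex. All 6 ipsilateral libraries therefore lay above all 6 contralateral ones, as for 3.59% of all genes in this direction. The log2 difference was 0.44 ± 0.07 (SE, n = 6 against 6, edgeR adjusted p = 0.000725). Flt1 was also the one member called within each genotype, with 0.39 ± 0.10 in wt (1.31-fold, edgeR adjusted p = 0.0413) and 0.49 ± 0.10 in cKO (1.40-fold, edgeR adjusted p = 0.0102). Over all genes 2.92% were called in wt and 2.74% in cKO, and 2.73% and 2.56% were called higher. In each genotype 1 gene called of the 35 is thus near the share over all genes.

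Emcn, a sialomucin of capillary and venous endothelium at 137341067 to 137432185 on chromosome 3, was the other member whose 12 libraries split by side. It was at 5.45, 5.36 and 6.14 CPM in wt contralateral and 6.80, 8.24 and 8.48 CPM in wt ipsilateral libraries. The cKO libraries held 5.66, 5.45 and 4.86 CPM in contralateral and 6.74, 6.21 and 6.97 CPM in ipsilateral cortex. The lowest ipsilateral library, at 6.21 CPM, was just above the highest contralateral one at 6.14 CPM. The log2 difference was 0.39 ± 0.09 (1.31-fold, edgeR adjusted p = 0.0166).

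Cdh5, on chromosome 8 at 104101625 to 104144511, encodes the cadherin of endothelial adherens junctions. It was at 17.3, 16.7 and 18.7 CPM in wt contralateral and 18.8, 22.2 and 23.5 CPM in wt ipsilateral libraries, and at 14, 16.7 and 14.8 CPM against 17.7, 20.1 and 20.8 CPM in cKO. The sides did not overlap within either genotype, but the highest contralateral wt library was above the lowest ipsilateral cKO one. The rise averaged 0.32 ± 0.08 (1.25-fold, edgeR adjusted p = 0.0156).

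Pecam1, an adhesion molecule of endothelial contacts also found on platelets and leukocytes, lies on chromosome 11 at 106654217 to 106750628. It went from 21.9, 23.3 and 25.8 CPM to 25.0, 30.6 and 32.1 CPM in wt, where one ipsilateral library fell inside the contralateral range. In cKO it went from 23.2, 26.0 and 18.7 CPM to 27.9, 32.0 and 28.6 CPM, with no overlap. The rise averaged 0.34 ± 0.09 (1.27-fold, edgeR adjusted p = 0.0266).

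The 2 transporters that rose carry a monocarboxylate and a hormone. Slc16a1 (chromosome 3, 104638668 to 104658462) was at 29.1, 30.0 and 32.1 CPM in wt contralateral and 43.3, 35.9 and 35.4 CPM in wt ipsilateral libraries, and at 29.1, 32.4 and 24.2 against 39.1, 37.5 and 30.7 CPM in cKO, where the sides overlapped. Slco1c1 (chromosome 6, 141524368 to 141570177) was at 40.5, 40.2 and 52.2 CPM in wt contralateral and 52.5, 55.2 and 64.9 CPM in wt ipsilateral libraries, and at 43.2, 43.8 and 43.4 against 45.6, 51.1 and 58.1 CPM in cKO, with no overlap in either genotype. The differences averaged 0.33 ± 0.08 for Slc16a1 (edgeR adjusted p = 0.0228) and 0.31 ± 0.08 for Slco1c1 (edgeR adjusted p = 0.03).

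**Figure D2:**
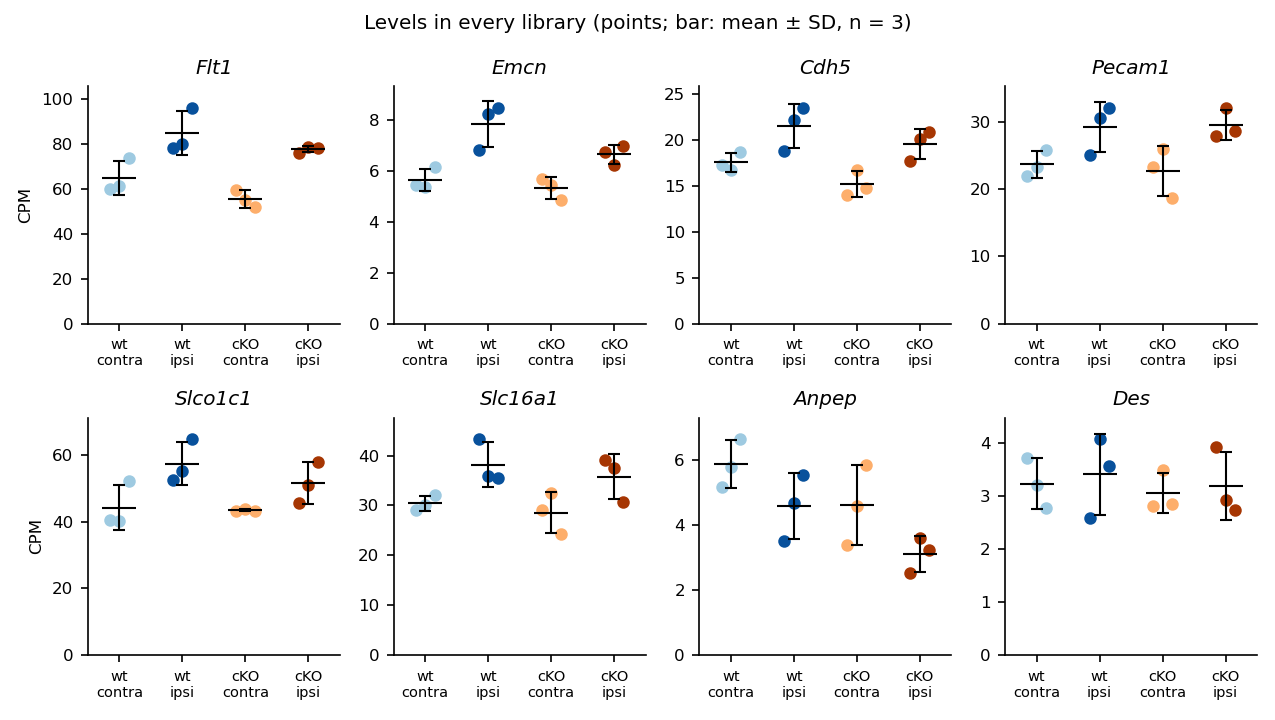
CPM in every library (points), with mean ± SD of the 3 libraries of a group, for the 6 endothelial genes that rose and for the pericyte gene Anpep and the smooth muscle gene Des, each axis starting at 0. In Flt1 and Emcn every ipsilateral library is above every contralateral one, Anpep is lowest in cKO ipsilateral cortex, and the 4 groups of Des overlap.

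These calls rested on both genotypes together and on the count scale. Leaving out any 1 of the 12 libraries kept Flt1 and Emcn, while Cdh5 was lost without cKO contralateral library 1, Pecam1 was lost without any of 6 libraries, Slc16a1 without any of 6 and Slco1c1 without any of 9, with adjusted p of up to 0.0542, 0.0775, 0.0687 and 0.086. Limma on log2(TPM + 1) gave all 6 the same direction (0.17 to 0.32, in a scaling where the median of all genes shifted) and called none of the 35 (adjusted p of 0.12 to 0.374 for these 6). Without the shallow cKO ipsilateral library 3 the differences were 0.43 for Flt1, 0.37 for Emcn, 0.30 for Cdh5, 0.35 for Pecam1, 0.38 for Slc16a1 and 0.26 for Slco1c1, the last no longer called (edgeR adjusted p = 0.068). Flt1 within wt was lost without any of 9 libraries (adjusted p of 0.0526 to 0.212), and Flt1 within cKO without cKO contralateral library 3 (0.0567) or cKO ipsilateral library 2 (0.0531).

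Among the junction genes not called, Cldn5 was at 27.5 ± 1.84 against 34.7 ± 7.03 CPM in wt and 27.6 ± 4.98 against 32.3 ± 4.83 CPM in cKO (SD, n = 3; mean log2 difference 0.27 ± 0.11, edgeR adjusted p = 0.143). It was called in 3 of 23 alternatives, including no filter (adjusted p = 0.00656) and leaving out wt ipsilateral library 1 (adjusted p = 0.0478). The scaffold gene Tjp1 differed by 0.22 ± 0.11 (edgeR adjusted p = 0.226) and was called without wt contralateral library 3, its highest contralateral library at 94.6 CPM (0.35, edgeR adjusted p = 0.00117). The adhesion gene Esam differed by 0.13 ± 0.08. Occludin (Ocln) was the one junction gene with a value below 0, at −0.06 ± 0.14, and its interval in wt ran from −0.51 to 0.24. So 2 of the 6 junction genes rose, and the tight junction genes Cldn5, Ocln and Tjp1 did not pass the test as fitted.

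Of the receptors, Flt1 rose and the other 4 did not pass. Tie1, the partner of the angiopoietin receptor Tek, was close to the threshold at 0.26 ± 0.08 (edgeR adjusted p = 0.051) and was called by DESeq2 (adjusted p = 0.0376). Kdr, the main signalling receptor for VEGF, differed by 0.15 ± 0.14, Tek by 0.04 ± 0.09 and endoglin (Eng), a co-receptor of the TGF-beta family, by −0.01 ± 0.08.

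Transporters showed small positive differences with 1 exception. Besides Slc16a1 and Slco1c1, the glucose transporter Slc2a1 differed by 0.19 ± 0.07 (edgeR adjusted p = 0.112), the lysolipid transporter Mfsd2a by 0.18 ± 0.07 (0.137), the efflux pumps Abcb1a and Abcg2 by 0.18 ± 0.08 and 0.07 ± 0.08, and the organic anion transporter Slco1a4 by 0.11 ± 0.09. Slc7a5, the large neutral amino acid transporter, was the 1 transporter below 0, at −0.13 ± 0.05 (edgeR adjusted p = 0.111). In wt, 5 of the 8 transporters had all 3 ipsilateral libraries above all 3 contralateral ones (Slc2a1, Mfsd2a, Slco1c1, Slco1a4 and Slc16a1) and Slc7a5 had all 3 below. In cKO this held for Slco1c1 alone. Over all genes 10.5% were higher and 8.7% lower in this way in wt, and 10.8% were higher in cKO, a share near that of the cKO transporters.

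The remaining surface and secreted genes did not pass the test. Ly6c1 differed by 0.14 ± 0.09, Ly6a, a stem cell antigen also made by arterial endothelium, by 0.06 ± 0.11 and von Willebrand factor (Vwf), the clotting protein of endothelial granules, by 0.11 ± 0.12. Vwf was at 0.24 in wt and −0.02 in cKO.

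**Figure D3:**
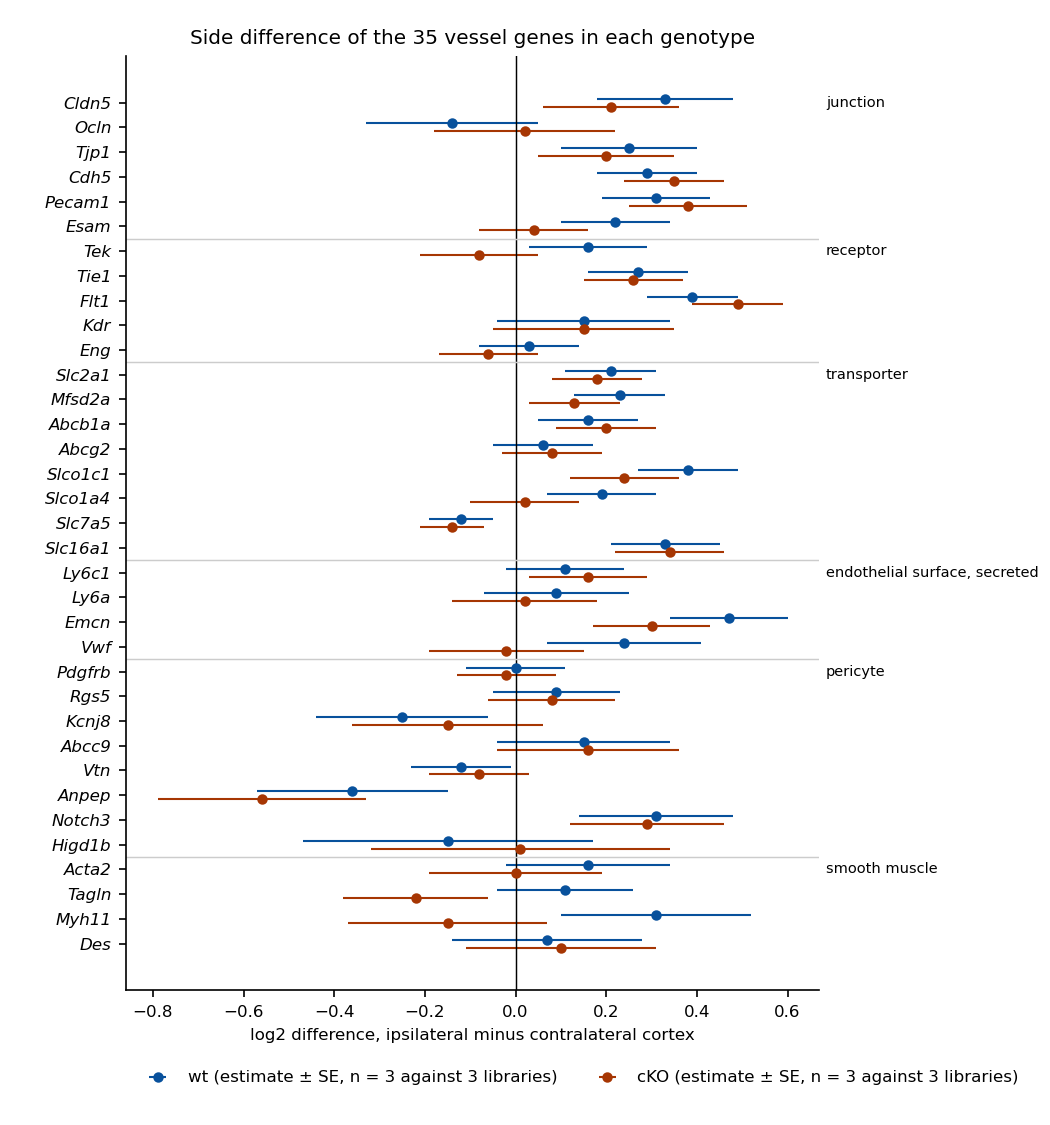
Log2 difference of ipsilateral minus contralateral cortex (± SE, 3 against 3 libraries) for each of the 35 genes in wt and in cKO, ordered by role. Flt1, at 0.39 in wt and 0.49 in cKO, is the gene called in each genotype; 21 of 23 endothelial genes in wt and 19 of 23 in cKO lie right of 0, against 7 and 5 of 12 mural genes and 48.8% and 48.6% of all genes.

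Pericyte genes lay on both sides of 0. Anpep, an aminopeptidase of pericytes that is also made by fibroblasts, had the largest difference of the mural genes. It was at 5.18, 5.81 and 6.66 CPM in wt contralateral and 3.52, 4.68 and 5.55 CPM in wt ipsilateral libraries, and at 3.40, 4.60 and 5.86 against 2.52, 3.60 and 3.23 CPM in cKO. The sides overlapped in both genotypes, and the difference of −0.46 ± 0.16 did not pass (edgeR adjusted p = 0.0913, and 0.0201 to 0.207 over the alternatives). It was called lower in 4 of 23 alternatives. These were edgeR with no filter (adjusted p = 0.024), without cKO contralateral library 1 (0.0473) and with a block for replicate number, across groups (0.0201) or within genotype (0.0303). Each ipsilateral library was below the contralateral library of its number, but the labels do not say that equal numbers are one animal. In the same libraries the 10 fibroblast and meningeal markers had a median difference of −0.43, 2 of them fell (Slc6a13 and Col1a2), and their sum was 208 to 213 CPM in wt contralateral, 144 to 212 in wt ipsilateral, 151 to 193 in cKO contralateral and 140 to 193 in cKO ipsilateral cortex. The part of these cells in the Anpep values was not tested.

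Notch3, the Notch receptor of mural cells, was at 14.6 ± 2.25 against 18.1 ± 3.05 CPM in wt and 12.3 ± 2.44 against 15.2 ± 2.22 CPM in cKO (SD, n = 3), a difference of 0.30 ± 0.12 (edgeR adjusted p = 0.145). Abcc9 and its channel partner Kcnj8, which form one potassium channel, went apart in their values, at 0.15 ± 0.14 and −0.20 ± 0.14. Pdgfrb, the receptor on which pericytes depend, was at −0.01 ± 0.08, with 26.3 ± 0.987 against 26.2 ± 3.73 CPM in wt. Rgs5 was at 0.09 ± 0.10, Vtn at −0.10 ± 0.08 and the mitochondrial protein gene Higd1b at −0.07 ± 0.23, the last resting on 0.819 to 2.49 CPM.

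No smooth muscle gene passed the test in wt, in cKO or in the average, and none had an unadjusted p under 0.05. The gene of this role with the largest difference, Des, was at 3.73, 3.21 and 2.77 CPM in wt contralateral and 2.58, 4.08 and 3.58 CPM in wt ipsilateral libraries. In cKO it was at 2.82, 3.49 and 2.86 against 3.93, 2.92 and 2.74 CPM. The groups overlapped and the difference was 0.09 ± 0.15 (edgeR adjusted p = 0.776). Smooth muscle actin Acta2 differed by 0.08 ± 0.13, Myh11 by 0.08 ± 0.15 and the actin-binding Tagln by −0.06 ± 0.11. For Myh11 and Tagln the average joins values of different sign: Myh11 was at 0.31 ± 0.21 in wt and −0.15 ± 0.22 in cKO, and Tagln at 0.11 ± 0.15 and −0.22 ± 0.16. All 4 genes had a value above 0 in wt and 1 of 4 in cKO. Tagln overlaps exons of Pcsk7 on the opposite strand. Exons of Eng, Slc2a1, Abcb1a, Abcc9, Notch3 and Des overlap opposite-strand genes in the same way, and the strand setting of the authors' counting is not given in the sources used here.

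Set side by side, the 23 endothelial genes followed here lay higher than the 12 mural genes in the side comparison. In the average over genotypes the median log2 difference was 0.18 for the 23 endothelial genes, 0.03 for the 12 mural genes and −0.01 for all genes tested. Values above 0 were found for 20 of 23 endothelial genes (87%), 6 of 12 mural genes (50%) and 48.2% of all genes. On the log2(TPM + 1) scale the medians were 0.08, −0.09 and −0.11. On the count scale they were 0.22 and 0.08 in wt and 0.16 and −0.01 in cKO. By role they were 0.25 for junction, 0.15 for receptor, 0.18 for transporter and 0.12 for surface genes, and −0.04 for pericyte and 0.08 for smooth muscle genes. Groups that did not overlap were found for 8 endothelial genes higher and 1 lower in wt and for 6 higher in cKO, and for 0 of 12 mural genes in each; over all genes 11.1% were lower in this way in cKO, and the other shares are those given with the transporters.

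Within each library the mean log2(CPM + 0.5) of the endothelial genes was compared with that of the mural genes. The endothelial mean exceeded the mural one by 0.95, 1.02 and 1.03 in wt contralateral and by 1.35, 1.05 and 1.14 in wt ipsilateral libraries. In cKO it did so by 1.17, 1.09 and 1.17 in contralateral and 1.34, 1.29 and 1.37 in ipsilateral libraries. Every ipsilateral library thus lay above every contralateral library of its genotype, although in wt the gap between the sides was the step from 1.03 to 1.05, and wt ipsilateral library 1 stood above the other wt libraries with the lowest mural mean of all (3.37, against 3.83 and 3.90 in the other 2 of its group). On the TPM scale the summed endothelial genes were 2.42 to 2.75 times the summed mural genes in wt contralateral, 2.76 to 3.24 in wt ipsilateral, 2.9 to 3.01 in cKO contralateral and 3.36 to 3.53 in cKO ipsilateral cortex. These are descriptions of chosen genes and carry no test.

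**Figure D4:**
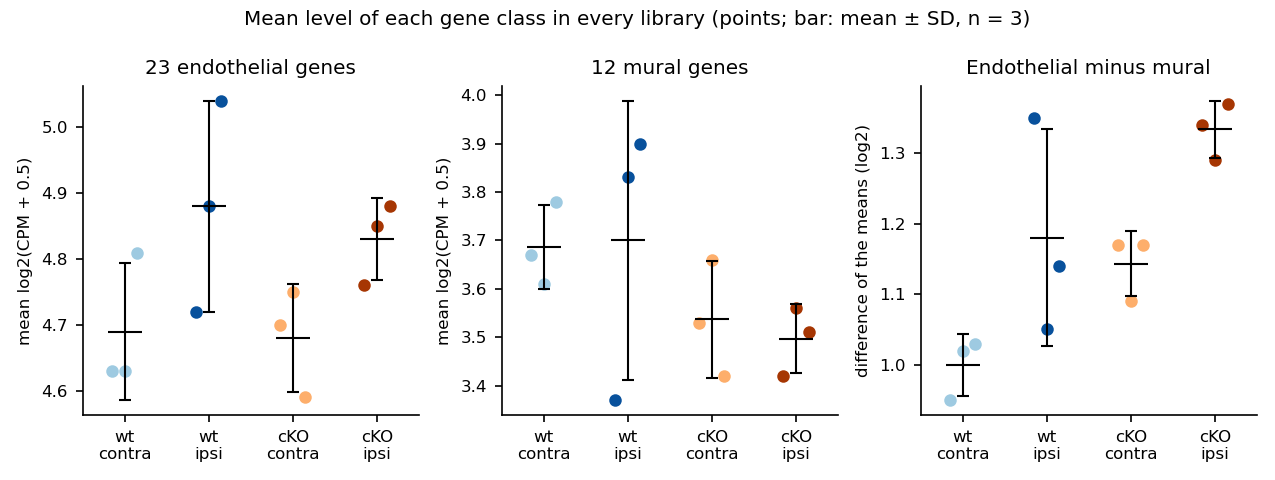
Mean log2(CPM + 0.5) of the 23 endothelial genes, of the 12 mural genes and the difference of these means in every library (points), with mean ± SD of 3 libraries a group; the axes do not start at 0. The endothelial minus mural difference is 0.95 to 1.03 in wt contralateral and 1.29 to 1.37 in cKO ipsilateral cortex, while the mural mean of wt ipsilateral libraries spreads from 3.37 to 3.90.

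Between genotypes no vessel gene passed the test. EdgeR called 0 of 35 in contralateral cortex, in ipsilateral cortex and in the average of the sides, as it called 0% of all genes in each. At an unadjusted p under 0.05 there were 5 of 35 in contralateral cortex (14.3%, against 2.7% of all genes), 8 in ipsilateral cortex (22.9%, against 5.86%) and 11 in the average (31.4%, against 6.46%). DESeq2 called 0 on either side and 1 in the average, Slc7a5. With no filter on low counts edgeR called 5 in the average: Tek, Slc2a1, Acta2, Slc7a5 and Kdr. The share of all genes called by DESeq2 or without the filter is not given here. These counts therefore cannot be set against it and are not read as a result about vessel genes.

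Slc7a5 (chromosome 8, 121881150 to 121907694) was singled out after its values were seen. It was at 92.0, 82.4 and 89.0 CPM in cKO contralateral against 73.0, 71.9 and 75.7 CPM in wt contralateral libraries. In ipsilateral cortex it was at 84.4, 76.7 and 76.8 CPM in cKO against 67.3, 66.3 and 69.9 CPM in wt. All 6 cKO libraries were above all 6 wt libraries, which held in this direction for 28 of all genes (0.166%) and for 1 of the 35. The difference was 0.26 ± 0.07 in contralateral and 0.23 ± 0.07 in ipsilateral cortex, and 0.24 ± 0.05 in the average (edgeR adjusted p = 0.389, DESeq2 adjusted p = 0.00868).

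Other transporter and receptor genes had values in opposite directions. In the average of the sides, cKO minus wt, Mfsd2a was at 0.27 ± 0.07 and Slc2a1 at 0.25 ± 0.07 (edgeR adjusted p of 0.559 and 0.564). Kdr was at −0.48 ± 0.14 and Tek at −0.33 ± 0.09 (both 0.564), and Flt1 at −0.18 ± 0.07 (0.691). Kdr went from 11 ± 2.42 CPM in wt to 7.87 ± 0.538 in cKO contralateral libraries and from 12.2 ± 2.80 to 9.03 ± 2.21 in ipsilateral ones (SD, n = 3). All 5 receptors had a value below 0 in the average (median −0.18; Eng, at −0.02, changed sign in 6 of 22 alternatives), and 4 of the 8 transporters did.

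All 12 mural genes had an averaged genotype difference below 0, from −0.46 to −0.00, with a median of −0.16 against −0.08 for the endothelial genes and 0.00 for all genes, of which 50.4% were above 0. None passed, and Higd1b, Abcc9, Vtn and Des, the genes nearest to 0 beside Pdgfrb, changed sign in 9, 2, 2 and 2 of 22 alternatives. Anpep was at −0.46 ± 0.16, Acta2 at −0.34 ± 0.13 and Kcnj8 at −0.34 (edgeR adjusted p of 0.654, 0.698 and 0.728). In ipsilateral cortex Tagln and Myh11 were both at −0.40, with intervals of −0.71 to −0.08 and −0.83 to 0.03. In contralateral cortex they were at −0.07 and 0.06. Of 8 other mural markers, 2 were above 0 in the average of the sides (median −0.08), and of 11 other endothelial markers also 2 (median −0.15). Markers of other cells had values on the same side: 0 of 10 fibroblast and meningeal markers (median −0.20), 0 of 7 microglial markers (median −0.16), 0 of 5 red cell genes (median −1.40) and 1 of 8 neuronal markers (median −0.10) were above 0. Of 7 astrocyte and 6 oligodendrocyte markers 3 each were above 0, as were all 7 neutrophil genes tested. Values below 0 were thus found in other cell types too, and their part in the vessel gene values was not tested. On the log2(TPM + 1) scale the ipsilateral medians were 0.11 for the endothelial and 0.02 for the mural genes, where the median of all genes was 0.16.

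**Figure D5:**
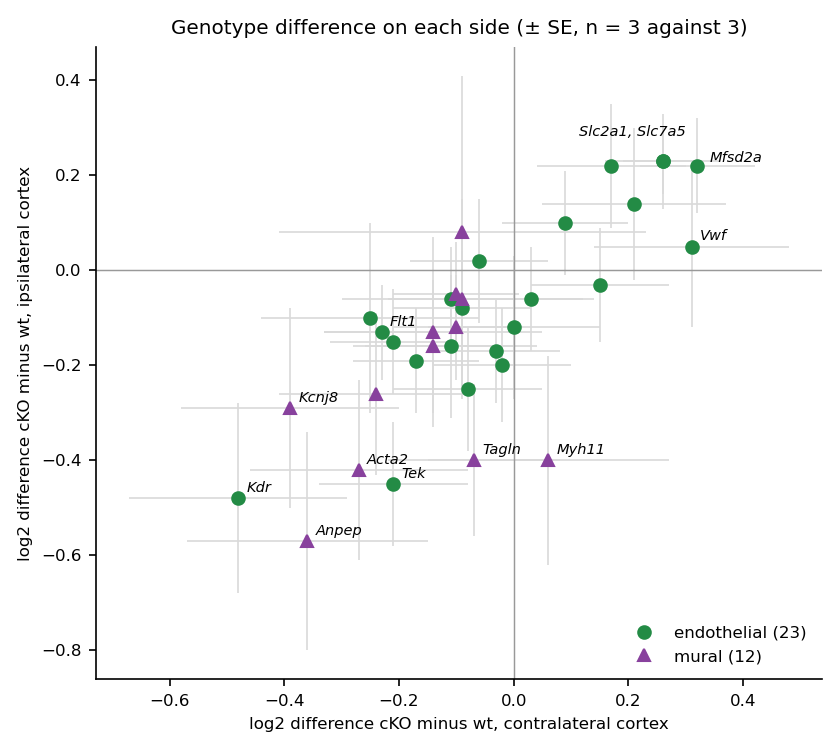
Log2 difference of cKO minus wt in contralateral (horizontal) and ipsilateral cortex (vertical) for the 35 genes, with SE bars (3 against 3 libraries). Slc2a1, Slc7a5 and Mfsd2a lie above 0 on both axes, Kdr, Tek, Anpep and Acta2 below, and none of the 35 passed the test on either side.

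The side difference did not differ detectably between genotypes for any vessel gene. EdgeR called 0 of 35 and DESeq2 0 of 35, none had an unadjusted p under 0.05 (2.26% of all genes did), and over all genes 0% were called. The difference of the responses, cKO minus wt, was 0.10 for Flt1 (95% interval −0.17 to 0.37), 0.06 for Cdh5 (−0.24 to 0.36) and −0.17 for Emcn (−0.53 to 0.19). The largest in size were those of Myh11, at −0.46 (−1.06 to 0.14), and Tagln, at −0.33 (−0.77 to 0.11). Intervals of the 35 genes reached from −1.06 to 1.07, so a missed threshold does not show that the genotypes responded alike.

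Of the pathways that act on these vessels, 9 lists of related genes were read off the same fit, in the average over genotypes. Over all genes 5.99% were called higher and 2.03% lower there, so 1 gene called in a list of 14 to 19 is near the share over all genes. Of 16 VEGF and angiopoietin ligands and regulators 2 rose and 0 fell: Vegfa, the ligand of Flt1 and Kdr, by 0.78 ± 0.07 (edgeR adjusted p = 2.79e-06; 35.4 ± 5.52 to 62.4 ± 2.53 CPM in wt and 35.3 ± 2.52 to 58.9 ± 2.77 CPM in cKO), and Apln, a peptide of sprouting endothelium also made by neurons, by 0.32 ± 0.07. Of 18 endothelial transcription factors and genes of the response to shear stress 7 rose and 0 fell (median 0.35). The first 4 were Sox7 (1.83 ± 0.15, from 1.25 to 4.70 CPM in wt and 1.35 to 4.57 CPM in cKO), Klf4 (1.47 ± 0.18), Ets1 (0.76 ± 0.11), an ETS factor, and Edn1 (0.75 ± 0.12), which encodes the constrictor endothelin 1. Of these, Klf4 and Ets1 are made by other cells of the cortex as well. Which cells gave the rises in this and the other lists was not tested.

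Of 20 genes of TGF-beta and Notch signalling 5 rose and 0 fell (median 0.23), led by Tgfb1 (1.11 ± 0.13), the Notch ligand Dll4 of arterial and sprouting endothelium (1.38 ± 0.19, from 1.81 to 4.91 CPM in wt and 1.80 to 4.38 CPM in cKO), its receptor Notch1 (0.58 ± 0.08) and Smad7 (0.49 ± 0.07), an inhibitor of TGF-beta signalling. Of 18 Wnt and norrin genes, the pathway that induces barrier properties, 1 rose: the ligand Wnt7a by 0.49 ± 0.08 (edgeR adjusted p = 0.000764), at 6.79 against 10.9 CPM in wt and 6.66 against 8.15 CPM in cKO. Of 14 basement membrane genes 1 rose (Lama5, 0.43 ± 0.09), of 14 junction partners 1 (Ctnnd1, which encodes p120 catenin, 0.43 ± 0.09), and of 19 contractile and tone genes of mural cells 1 (the endothelin receptor Ednrb, also an astrocyte gene, 0.35 ± 0.08). Of 11 caveolar and transcytosis genes 0 were called. Of 10 genes of the astrocyte endfeet that cover the vessels 3 rose: Mlc1, the potassium channel Kcnj10 and connexin 43 (Gja1), by 0.24, 0.29 and 0.25.

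Markers of other cells were read in the same comparison, where single calls in the smaller lists are again to be read against 5.99% higher and 2.03% lower over all genes. Of 11 endothelial markers outside the 35 genes 1 rose (Palmd, 0.43 ± 0.12) and their median was 0.06, below the 0.18 of the 23. Of 8 other mural markers 1 fell (Lmod1, −0.77 ± 0.19) and the median was 0.00. Of 7 astrocyte markers 4 rose (median 0.20), of 8 neuronal markers 3 fell (median −0.14), of 6 oligodendrocyte markers 1 rose (Mbp), and of 7 microglial markers 1 fell (Tmem119, −0.70 ± 0.09). All 5 red cell genes rose, from sums of 2.1 to 242 CPM to 597 to 2104 CPM in wt and from 4.76 to 81.6 to 602 to 933 CPM in cKO. All 7 neutrophil genes tested were called higher, but Mmp8, Cxcr2 and Retnlg had contralateral group means of 0 to 0.0317 CPM, under the floor. These genes passed the filter on low counts through ipsilateral libraries alone, so their direction was largely set by that filter. Sums over the 8 listed neutrophil genes, the untested Ly6g included, were 5.90 to 5.99 against 12 to 30.8 CPM in wt. In cKO they were 5.34 to 6.10 against 21.3 to 46.3 CPM. The part of these cells in the vessel gene values was not tested.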

How the data were processed

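Vessel genes were read off tables of 12 cortex libraries made with a stranded mRNA kit. Per the submitters' processing notes, the tools were Trim Galore 0.6.4, STAR 2.7.1a with the mm10 build, and RSEM 1.2.28, and the authors deposited estimated counts (expected counts, whole numbers here) and TPM per gene. The notes also name DESeq2 1.36.0; the annotation and strand setting are not given in the sources used here. Identifiers were matched to GENCODE M21 (55141 of 55487, 99.4%).

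Counts were fitted in R 4.3.3 with edgeR 4.0.16 (quasi-likelihood test, TMM scaling, filterByExpr with a minimum count of 10 and total of 15) over all 12 libraries with a mean for each of the 4 groups. Benjamini-Hochberg adjustment ran over the 16836 kept genes, and an adjusted p under 0.05 counted as called. The 7 comparisons were side in each genotype and averaged, genotype on each side and averaged, and the difference of the side effects. Intervals are the estimate ± 1.96 SE, and CPM used the scaled library sizes. The floor of 3 counts covers counting error only. Simulated counts with known fold changes were used to test the scripts.

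The members and lists were chosen with earlier results of these data known, so no list test was made. Full values were given for members called in any comparison and for the member with the largest averaged side difference of each role; of other lists, up to 4 called genes by smallest adjusted p. Alternatives were DESeq2 1.42.0 (size factors, test), library totals, no filter, a strict filter, limma 3.58.1 (voom; log2 TPM), replicate blocks, the 2 compared groups alone and each library left out.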

Additional observations from a re-analysis of the deposited data

How the results depend on the processing

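Without a filter on low counts, edgeR called 4 vessel genes by side in wt, 3 in cKO and 11 in the average of genotypes (Anpep and Notch3 among them), against 1, 1 and 6, and 5 against 0 between genotypes in the average of sides; the cause was not tested. In wt, scaling to library totals and a fit of the 2 groups alone gave 0, DESeq2 3, and leaving out cKO ipsilateral library 3 and wt contralateral library 3 together 4. DESeq2 called 1 gene between genotypes in the average. Limma on log2(TPM + 1) and on log2(TPM + 0.1) gave 0 in the 3 side comparisons. These TPM scales moved the median of all genes, to −0.18 and −0.21 for side in wt and 0.16 and 0.18 for genotype in ipsilateral cortex. The endothelial medians there became 0.05 and 0.05 for side in wt, 0.11 and 0.12 for genotype in ipsilateral cortex, 0.04 and 0.05 for genotype averaged, and 0.13 and 0.14 for the difference of responses. The mural medians became −0.12 and −0.15 for side in wt and 0.02 and 0.03 for genotype in ipsilateral cortex. Leaving out each library gave 0 to 4 calls in wt, 0 to 1 in cKO and 3 to 7 in the average, and an endothelial median of the difference of responses of −0.15 to −0.01. No called direction reversed under any alternative run. The share of all genes called under each alternative, the replicate blocks below included, is not given here. Whether these counts of vessel genes exceed that share therefore cannot be read from them.

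The labels do not say that equal replicate numbers are one animal. Over genes of at least 10 CPM, same-numbered sides correlated at 0.248, 0.311 and 0.235 in cKO, each the best match. In wt they correlated at −0.301, 0.463 and −0.00147, where only number 2 was the best match. Over all 16836 genes the values were 0.0705, 0.092 and 0.0568 in cKO and −0.002, 0.0941 and 0.0457 in wt. There the same number was the best match except for wt number 1. A replicate block, across groups or within genotype, gave 2 calls in wt (adding Slco1c1), 1 in cKO and 8 in the average. The first block added Anpep (adjusted p = 0.0201) and Cldn5 (0.0458), and the second Anpep (0.0303) and Slc2a1 (0.0334). A block within genotype cannot estimate a genotype comparison, and a fit of 2 groups does not apply to averaged comparisons or to the difference of responses, so these were not run. Depth limits the genes of fewest counts, of which the lowest was 8.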
